A study of Homo sapiens with 24 samples.

Results

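The comparison described here set SBC-3 cells given siNONO-4, one of a pair of small interfering RNAs (siRNAs) against NONO, beside SBC-3 cells given a control siRNA. Its members were the 3 siNONO-4 and the 3 siCtrl libraries, 6 of the 24 libraries in the series, and every miRNA row of their tables was used, with 1 locus kept for each mature miRNA. SBC-3 is a human small cell lung cancer line. Small RNA was sequenced to ask how the nuclear proteins SFPQ and NONO and the long noncoding RNA NEAT1 bear on miRNA levels, and the other groups were treated with siRNAs against SFPQ, another siRNA against NONO (siNONO-3) or antisense oligonucleotides.

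The siNONO-4 libraries carry the genotype label NONO knockdown and the siCtrl libraries the label WT. All 6 came from the same line, reverse transfected (cells added to the siRNA mix) with 10 nM siRNA in Lipofectamine RNAiMAX and harvested 72 h later. From each, 100 ng of RNA received 0.1 uL of spike-in oligonucleotides before library preparation with a QIAseq miRNA kit. NONO mRNA is not measured in small RNA libraries, so the depth of the knockdown cannot be checked here, and an siRNA sequence for siNONO-4 was not used here. The labels do not say whether replicates were separate cultures. The p-values of single miRNAs therefore measure the spread between replicate samples over all 24 libraries, which may be technical.

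NONO is an RNA- and DNA-binding protein that pairs with SFPQ, and both are core proteins of paraspeckles, the nuclear bodies built on NEAT1. A miRNA starts as a hairpin in a long primary transcript, is cut out by the Microprocessor (Drosha with DGCR8) in the nucleus, trimmed by Dicer in the cytoplasm and loaded into Argonaute, usually with 1 of its 2 arms favoured. NONO and SFPQ have been reported to bind primary miRNA transcripts and to aid their processing in HeLa cells. The miR-34 family is known as a target of the p53 transcription factor and as a repressor of cell cycle genes.

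Sequences of 5 of the 6 miRNAs that passed the test are shown first, with that of miR-449a, which did not pass, to set the seeds of the miR-34 relatives and of the miR-1260 pair side by side. Mature sequences are RefSeq's, on GRCh38.p14, written 5′ to 3′ with the seed (bases 2 to 8) in capitals.
miR-34a-5p: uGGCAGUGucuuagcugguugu
miR-34b-5p: uAGGCAGUgucauuagcugauug
miR-449a: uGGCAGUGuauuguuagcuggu
miR-1260a: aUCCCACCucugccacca
miR-1260b: aUCCCACCacugccaccau
miR-676-3p: cUGUCCUAagguuguugaguu
miR-34a-5p and miR-449a share the seed GGCAGUG. miR-34b-5p starts with an added base, so that the same letters stand 1 position later and its bases 2 to 8 read AGGCAGU. miR-1260a and miR-1260b share the seed UCCCACC. Over their common length they differ by the substitution U9A, with miR-1260a's base first and positions counted from its 5′ end.

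The siNONO-4 libraries held 3677533, 4279644 and 2489590 miRNA counts in replicates 1 to 3, and the siCtrl libraries 3153671, 3109715 and 2038382. They detected 1118, 1172 and 1040 mature miRNAs with siNONO-4 and 1037, 1084 and 927 with siCtrl. Replicate 1 of siCtrl stood apart. Of the 379 miRNAs at 10 CPM (library counts rescaled to a common size with TMM factors) or more, 118 lay 2-fold or further from the mean of the other 2 replicates there, against 22, 0 and 8 in siNONO-4 replicates 1 to 3 and 26 and 30 in siCtrl replicates 2 and 3. Fold changes and medians that moved by more than 1.5 times or turned sign without that library are given both ways for the miRNAs and lists described. The exceptions are miR-449a and miR-429, and miRNAs given by CPM or counts alone, for which no fold change without that library is given.

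**Figure D1:**
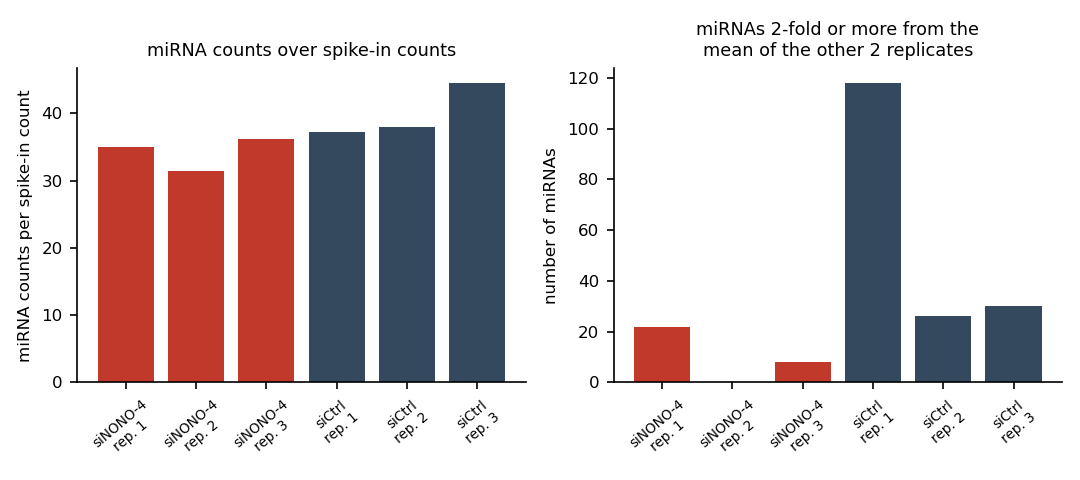
Left, miRNA counts per spike-in count in each siNONO-4 (red) and siCtrl (blue) library. Right, the number of miRNAs, of 379 at 10 CPM or more, that lay 2-fold or further from the mean of the other 2 replicates, with siCtrl replicate 1 highest at 118.

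Total miRNA relative to the spike-ins was 34.9, 31.4 and 36.2 miRNA counts per spike-in count in siNONO-4 libraries and 37.2, 37.9 and 44.5 in siCtrl libraries. The groups did not overlap, all siNONO-4 libraries being lower. The means were 34.2 ± 2.49 with siNONO-4 and 39.9 ± 4.05 with siCtrl (SD, n = 3 each), 14.2% lower with siNONO-4. A two-sided exact permutation test gave p = 0.1, the smallest that 3 against 3 libraries allow. The spike-ins were added to a fixed mass of RNA, so the ratio is per mass of RNA. It measures neither the number of cells nor the RNA in each, and the cause of the difference was not tested.

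Against siCtrl, 5 miRNAs rose with siNONO-4 (0.799% of the 626 tested) and 1 fell (0.16%). Those that rose were the 5p products of all 3 miR-34 genes, miR-34a, miR-34b and miR-34c, together with miR-1260a and miR-1260b, and miR-676-3p fell. These calls are from the quasi-likelihood test of edgeR at an adjusted p of 0.05 (Benjamini-Hochberg, over all 626), as is every adjusted p below for which no other tool is named. At an unadjusted p under 0.05 there were 63 miRNAs (10.1%), 38 of them higher and 25 lower. The tested miRNAs include 8 at 0 in all 6 libraries, kept for their level in other groups. The groups did not overlap for 79 miRNAs (12.6%), 50 higher (7.99%) and 29 lower (4.63%). DESeq2 called the same 6 and 5 more, 11 in all (1.76%), 9 higher (1.44%) and 2 lower (0.319%), and gave an adjusted p for 444 of the 626.

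**Figure D2:**
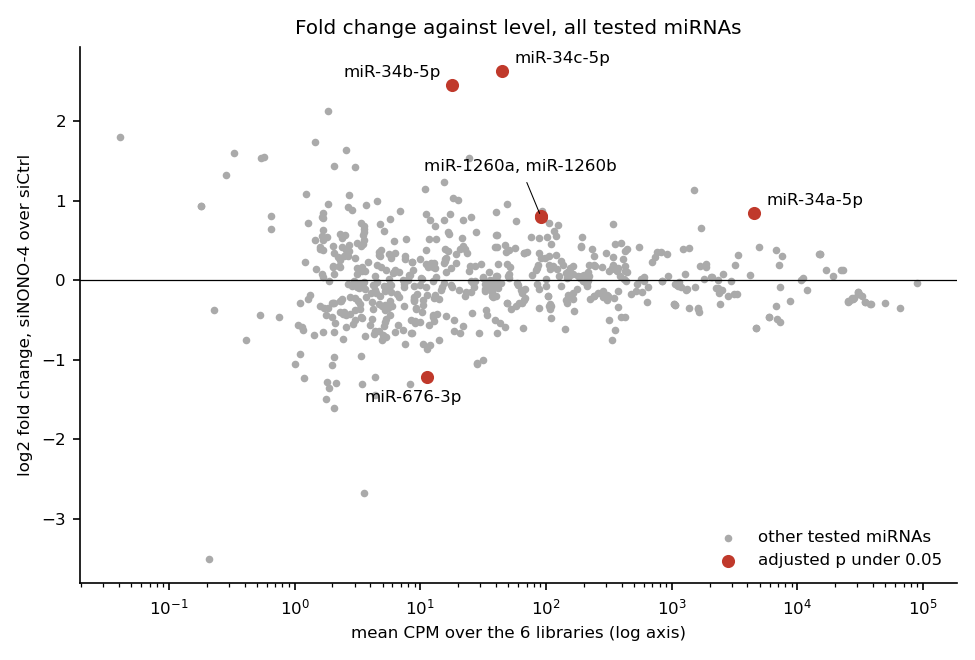
Each point is 1 of the 626 tested miRNAs, with mean CPM over the 6 libraries on a log axis and log2 fold change, siNONO-4 over siCtrl, on the vertical axis. The 6 miRNAs past the threshold (red) are miR-34c-5p, miR-34b-5p, miR-34a-5p, miR-1260a, miR-1260b and miR-676-3p, and other miRNAs with fold changes as large did not pass.

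Within the miR-34 family, miR-34c-5p had the largest fold change of the 6. It is encoded at chr11:111513451-111513473 on the plus strand of hg38, outside any annotated gene on its strand. It stood at 70.1, 72.3 and 88.6 CPM in siNONO-4 replicates 1 to 3, against 15.0, 9.63 and 12.7 CPM in siCtrl replicates. The lowest siNONO-4 library was far above the highest siCtrl library. The means were 77.0 ± 10.1 CPM with siNONO-4 and 12.4 ± 2.69 CPM with siCtrl (SD, n = 3 each), a log2 fold change of 2.63 ± 0.30 (SE; adjusted p = 5.47e-06).

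miR-34b-5p lies at chr11:111512950-111512972 on the same strand, 478 bases upstream, and is known to share its primary transcript with miR-34c. It stood at 30.3, 30.3 and 30.9 CPM in siNONO-4 libraries, against 6.75, 5.65 and 3.85 CPM in siCtrl libraries. The siNONO-4 replicates were almost level with each other and well apart from siCtrl. The log2 fold change was 2.46 ± 0.31 (SE; adjusted p = 1.43e-05). The counts behind it were 115, 123 and 75 with siNONO-4 and 18, 17 and 7 with siCtrl.

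miR-34a-5p comes from a separate locus, chr1:9151735-9151756 on the minus strand, in an exon of the noncoding host gene MIR34AHG. It is the abundant member, with 97.5% to 97.7% of the family's counts in siNONO-4 libraries and 98.5% to 99.1% in siCtrl libraries. It stood at 5389, 5765 and 6375 CPM with siNONO-4, against 2688, 3282 and 3761 CPM with siCtrl. Every siNONO-4 library was above every siCtrl library. The log2 fold change was 0.85 ± 0.17 (SE; adjusted p = 0.00671), with a 95% interval of 0.50 to 1.20 that lies below those of miR-34b-5p (1.80 to 3.11) and miR-34c-5p (1.99 to 3.27). The difference between these members was not tested. The call of miR-34a-5p was lost without siCtrl replicate 1, the lowest of the controls (log2 fold change 0.71, edgeR adjusted p = 0.0607), without siCtrl replicate 2 (0.84, 0.0667) and without siNONO-4 replicate 3 (0.75, 0.159).

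The other arms were less abundant. miR-34a-3p stood at 31.9, 27.3 and 23.1 CPM with siNONO-4 and 13.1, 21.6 and 13.8 CPM with siCtrl. The groups did not overlap, but the log2 fold change of 0.75 ± 0.27 missed the threshold (SE; adjusted p = 0.248). miR-34b-3p had 10, 17 and 12 counts with siNONO-4 and 5, 2 and 2 with siCtrl, a log2 fold change of 1.65 ± 0.67 (SE; adjusted p = 0.346). miR-34c-3p was too low to test, with 3, 5 and 3 counts with siNONO-4 and 1, 0 and 0 with siCtrl.

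The miR-449 genes encode relatives of miR-34, known from multiciliated epithelium. miR-449a had 9, 9 and 6 counts with siNONO-4 and 1, 10 and 3 with siCtrl, so the groups overlapped, and its log2 fold change was 0.34. In CPM it stood at 2.37, 2.21 and 2.47 with siNONO-4 and 0.375, 3.32 and 1.65 with siCtrl. Replicate 1 of siCtrl was thus the lowest library, and a direction without it cannot be given. miR-449b-5p had 3, 4 and 1 counts with siNONO-4 and 1, 1 and 2 with siCtrl. miR-449c-5p had 4, 3 and 2 counts with siNONO-4 and 6, 1 and 2 with siCtrl. These levels were too low to show a difference. Of the 11 products of the family, 6 could be tested, 3 rose and all 6 had a fold change above 0 with every library kept. Their median log2 fold change was 1.25, against -0.01 over all 626 miRNAs, and 1.42 without siCtrl replicate 1.

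**Figure D3:**
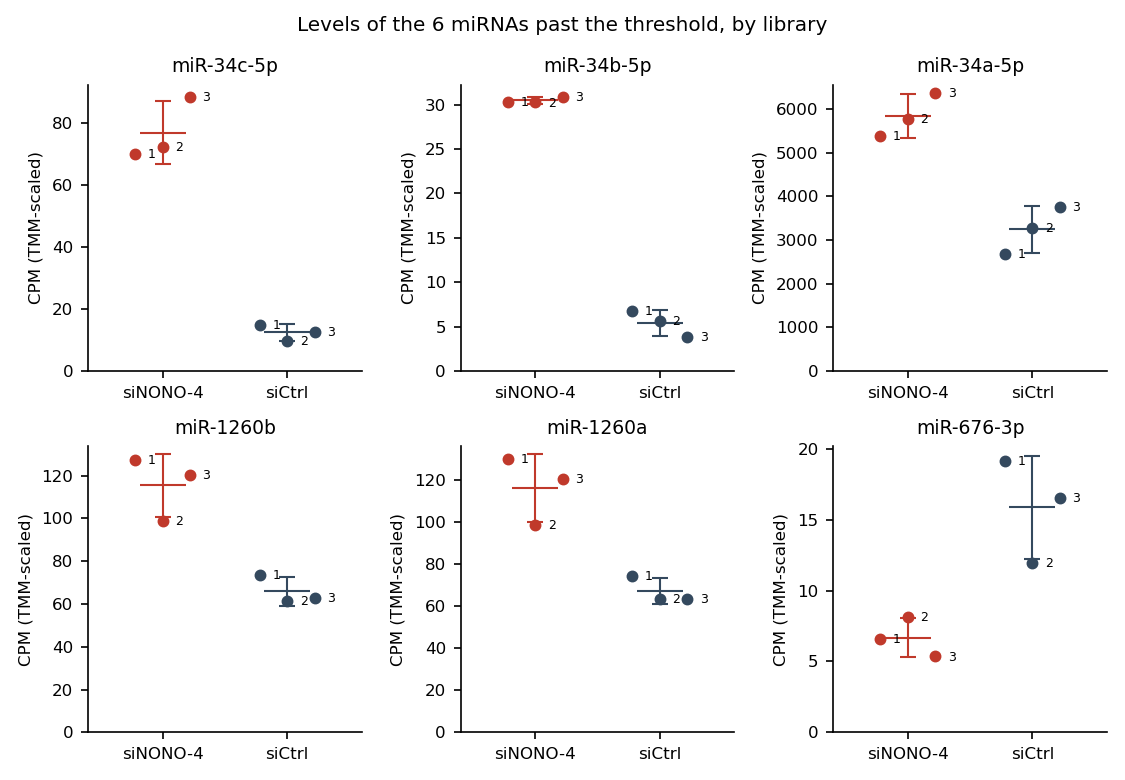
CPM of the 6 miRNAs past the threshold in each siNONO-4 (red, left) and siCtrl (blue, right) library, numbered by replicate, with the mean (long bar) and SD. The groups do not overlap in any panel, siNONO-4 being higher in 5 and lower for miR-676-3p.

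miR-1260b and miR-1260a were the other miRNAs that rose. They are short products, of 19 and 18 bases, from chr11:96341447-96341465 and chr14:77266231-77266248, both on the plus strand and outside annotated genes on it. miR-1260b stood at 127, 98.9 and 120.4 CPM with siNONO-4 and 73.4, 61.4 and 62.8 CPM with siCtrl. The groups did not overlap, and the log2 fold change was 0.81 ± 0.19 (SE; adjusted p = 0.0442). For miR-1260a it was 0.79 ± 0.19 (SE; adjusted p = 0.0442). The counts of the pair were within 10% of each other in every library, so they may have been counted from the same reads, which was not tested, and they are not taken here as separate signals. Both calls were lost without siNONO-4 replicate 1 or 3 or siCtrl replicate 2 or 3.

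miR-676-3p, the 1 miRNA that fell, lies at chrX:70022899-70022919 on the plus strand, in an intron of EDA, the gene of the ectodermal ligand ectodysplasin A. It stood at 6.59, 8.12 and 5.36 CPM with siNONO-4, against 19.1, 11.96 and 16.5 CPM with siCtrl. The highest siNONO-4 library was below the lowest siCtrl library. The log2 fold change was -1.22 ± 0.28 (SE; adjusted p = 0.0342), from 25, 33 and 13 counts with siNONO-4 and 51, 36 and 30 with siCtrl. The other arm, miR-676-5p, had 0, 0 and 2 counts with siNONO-4 and 2, 1 and 1 with siCtrl and could not be tested. The call was lost without siNONO-4 replicate 1 or 3 or siCtrl replicate 1 or 3.

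Under 16 alternative settings, miR-34b-5p and miR-34c-5p passed the threshold each time. miR-34a-5p passed in 10 of the 16, and miR-1260a, miR-1260b and miR-676-3p in 8 each. With spike-in totals in place of TMM scaling, with a model of the 6 libraries alone, or against a fold of at least 1.5, miR-34b-5p and miR-34c-5p alone were called.

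**Figure D4:**
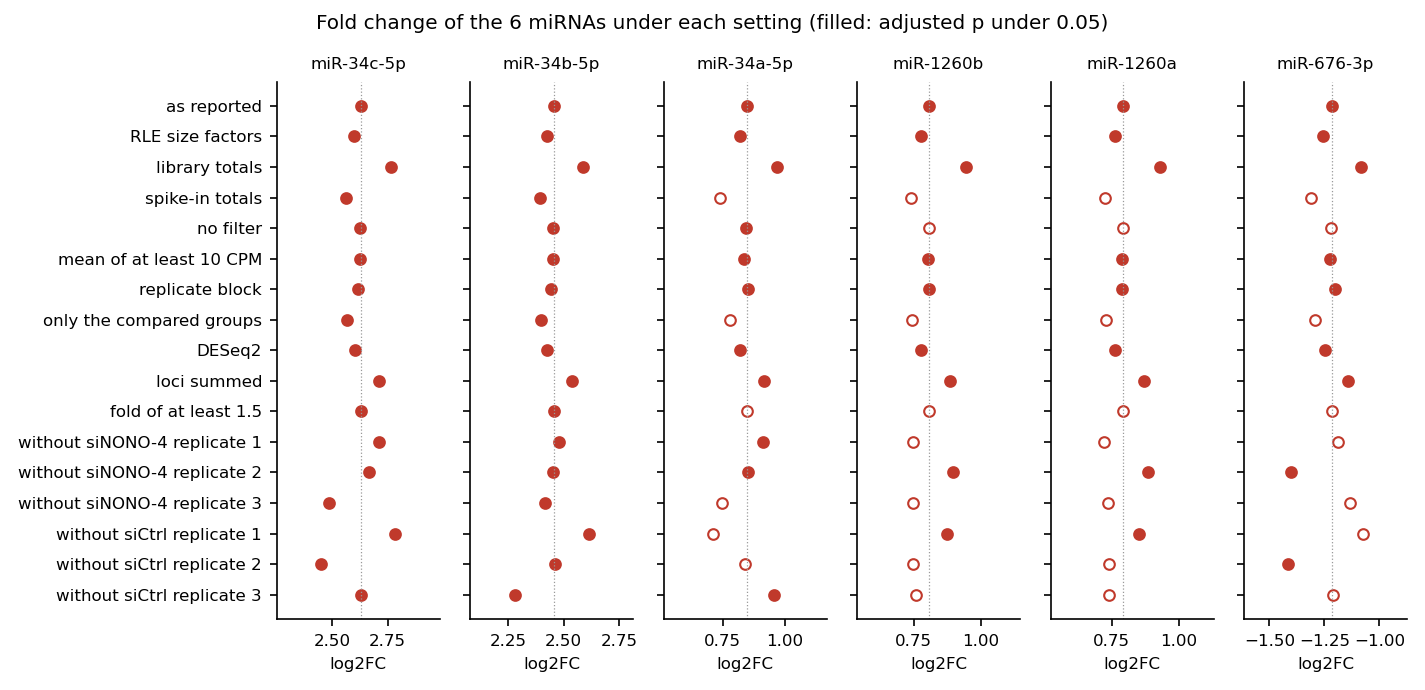
Log2 fold change, siNONO-4 over siCtrl, of the 6 miRNAs as reported and under 16 alternative settings. Filled points passed an adjusted p of 0.05 and open points did not, and the dotted line is the reported value. miR-34c-5p and miR-34b-5p are filled throughout.

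The 5 most abundant miRNAs of the control cells did not pass the test. miR-9-5p, a neural miRNA and the most abundant here, stood at 78550, 90737 and 97360 CPM with siNONO-4 and 82538, 91742 and 97544 CPM with siCtrl. The groups overlapped almost completely, and the log2 fold change was -0.03 (adjusted p = 0.976), with a 95% interval of -0.33 to 0.28. miR-335-5p and miR-335-3p, both cut from a hairpin in an intron of the imprinted gene MEST, had log2 fold changes of -0.35 (95% interval -0.82 to 0.13) and -0.29 (-0.64 to 0.06), with adjusted p of 0.612 and 0.566. Without siCtrl replicate 1 these were -0.54 for miR-335-5p and -0.17 for miR-335-3p, and miR-9-5p was at -0.11.

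miR-19a-3p and miR-19b-3p, oncogenic members of the miR-17~92 cluster, differed in counts by at most 10% in each library, so their values cannot be separated. miR-19a-3p stood at 39872, 32810 and 31712 CPM with siNONO-4 and 15538, 52150 and 60556 CPM with siCtrl. Replicate 1 of siCtrl was the lowest of the 6 libraries and the other controls the highest. The log2 fold change was -0.30 ± 0.30 (SE; adjusted p = 0.841), and -0.72 without siCtrl replicate 1. The less abundant arms miR-9-3p, miR-19a-5p and miR-19b-2-5p had log2 fold changes of -0.08, -0.46 and -0.21, and none passed. Without siCtrl replicate 1 these were -0.22, -0.91 and -0.33.

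Among the 83 miRNAs at 1000 CPM or more in siCtrl, 1 was called, miR-34a-5p. Their log2 fold changes ran from -0.60 to 0.85, and the 95% interval lay within 2-fold either way for 75 of them. Among the 245 miRNAs under 10 CPM in siCtrl, the interval was that narrow for 34, and 1 was called, miR-34b-5p. For most miRNAs at low level a 2-fold difference was therefore not excluded. Over all 626 the median SE of a log2 fold change was 0.33.

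DESeq2 called 5 miRNAs that edgeR did not, and these are named after their values were seen. The closest to edgeR's threshold were miR-141-3p, miR-489-3p and miR-675-3p, each with an adjusted p of 0.0926 by edgeR. The sequences of the first of these and of its seed relative miR-200a-3p show their common seed AACACUG.
miR-141-3p: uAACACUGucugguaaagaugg
miR-200a-3p: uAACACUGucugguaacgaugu
The miR-200 family, to which both belong, maintains the epithelial state by repressing ZEB1 and ZEB2. miR-141-3p, in an intron of MIR200CHG at chr12:6964155-6964176, stood at 66.9, 50.4 and 75.9 CPM with siNONO-4 and 19.1, 38.2 and 42.4 CPM with siCtrl. The groups did not overlap, and siCtrl replicate 1 was lowest. The log2 fold change was 0.96 ± 0.26 (SE; DESeq2 adjusted p = 0.0213), and 0.66 without siCtrl replicate 1.

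Of the 9 products of the miR-200 family, 7 could be tested. None passed edgeR's test, the lowest adjusted p being 0.0926, and 1 passed by DESeq2. All 7 had fold changes above 0, with a median log2 fold change of 0.80 against -0.01 over all miRNAs tested, and 0.79 without siCtrl replicate 1. miR-200a-3p stood at 28.4, 31.0 and 36.3 CPM with siNONO-4 and 13.5, 21.9 and 19.3 CPM with siCtrl, without overlap (log2 fold change 0.80, adjusted p = 0.157). miR-200c-3p stood at 40.8, 26.6 and 34.2 CPM with siNONO-4 and 33.4, 15.3 and 17.6 CPM with siCtrl, with overlap (log2 fold change 0.61, and 1.02 without siCtrl replicate 1). The summed level of the family was 124 to 163 CPM with siNONO-4 and 77.6 to 90.8 CPM with siCtrl.

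miR-489-3p is encoded in an intron of CALCR, the calcitonin receptor gene, 1103 bases from miR-653-5p on the same strand. It stood at 63.0, 76.8 and 79.2 CPM with siNONO-4 and 48.7, 40.2 and 40.7 CPM with siCtrl, a log2 fold change of 0.75 ± 0.20 (SE; DESeq2 adjusted p = 0.0209). miR-653-5p stood at 143, 166 and 153 CPM with siNONO-4 and 125.2, 88.3 and 71.0 CPM with siCtrl. Neither pair of groups overlapped, and miR-653-5p had a log2 fold change of 0.70 ± 0.23 (SE; adjusted p = 0.219). miR-653-3p was at 0.62 with overlap, and at 0.30 without siCtrl replicate 1.

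The imprinted H19 and IGF2 genes on chromosome 11 carry a hairpin each. miR-675-3p, from an exon of H19, stood at 19.2, 19.2 and 26.8 CPM with siNONO-4 and 4.50, 11.96 and 11.01 CPM with siCtrl, a log2 fold change of 1.24 ± 0.34 (SE; DESeq2 adjusted p = 0.0209). Its other arm, miR-675-5p, stood at 23.4, 21.2 and 21.4 CPM with siNONO-4 and 14.2, 10.6 and 12.1 CPM with siCtrl (log2 fold change 0.84, adjusted p = 0.214). Neither arm's groups overlapped. miR-483-3p, from an intron of IGF2, stood at 1070, 2231 and 2863 CPM with siNONO-4 and 964, 864 and 974 CPM with siCtrl. The siNONO-4 replicates differed widely among themselves, though all were above siCtrl, and the log2 fold change of 1.14 ± 0.49 missed the threshold (SE; adjusted p = 0.394). miR-483-3p was past it in the fit with no filter on low counts (1.13, adjusted p = 0.00132).

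The other DESeq2 calls were miR-185-5p and miR-10b-3p. miR-185-5p, in an intron of TANGO2, stood at 456, 457 and 455 CPM with siNONO-4 and 369, 327 and 288 CPM with siCtrl (log2 fold change 0.48, edgeR adjusted p = 0.239, DESeq2 adjusted p = 0.0464). miR-10b-3p, in an intron of HOXD3, stood at 3.42, 5.17 and 5.77 CPM with siNONO-4 and 13.1, 8.30 and 14.3 CPM with siCtrl (log2 fold change -1.31, edgeR adjusted p = 0.214, DESeq2 adjusted p = 0.0498). The groups of both did not overlap. The abundant arm miR-10b-5p had a log2 fold change of -0.15, and 0.27 without siCtrl replicate 1.

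Outside the miR-34 and miR-449 family, no list of families, genomic clusters or markers held a miRNA past the threshold. The 10 tested products of the cluster of miR-424, miR-503, miR-542 and miR-450 on chromosome X all had fold changes below 0, with a median of -0.36, and none passed (lowest adjusted p 0.437). miR-542-3p stood at 370, 258 and 204 CPM with siNONO-4 and 486, 444 and 356 CPM with siCtrl, with overlap. Of 13 tested let-7 products 11 were below 0 (median -0.24, and -0.08 without siCtrl replicate 1), and of 12 in the miR-17~92 cluster 9 were below 0 (median -0.30, and -0.62 without siCtrl replicate 1). The 68 tested miR-548 products, a large primate family, had a median of 0.02, and -0.21 without siCtrl replicate 1. The medians of the miR-181 family, -0.33, and of the cluster of miR-221 and miR-222, -0.22, turned to 0.81 and 0.36 without siCtrl replicate 1. No direction can be given for these or for miR-548.

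**Figure D5:**
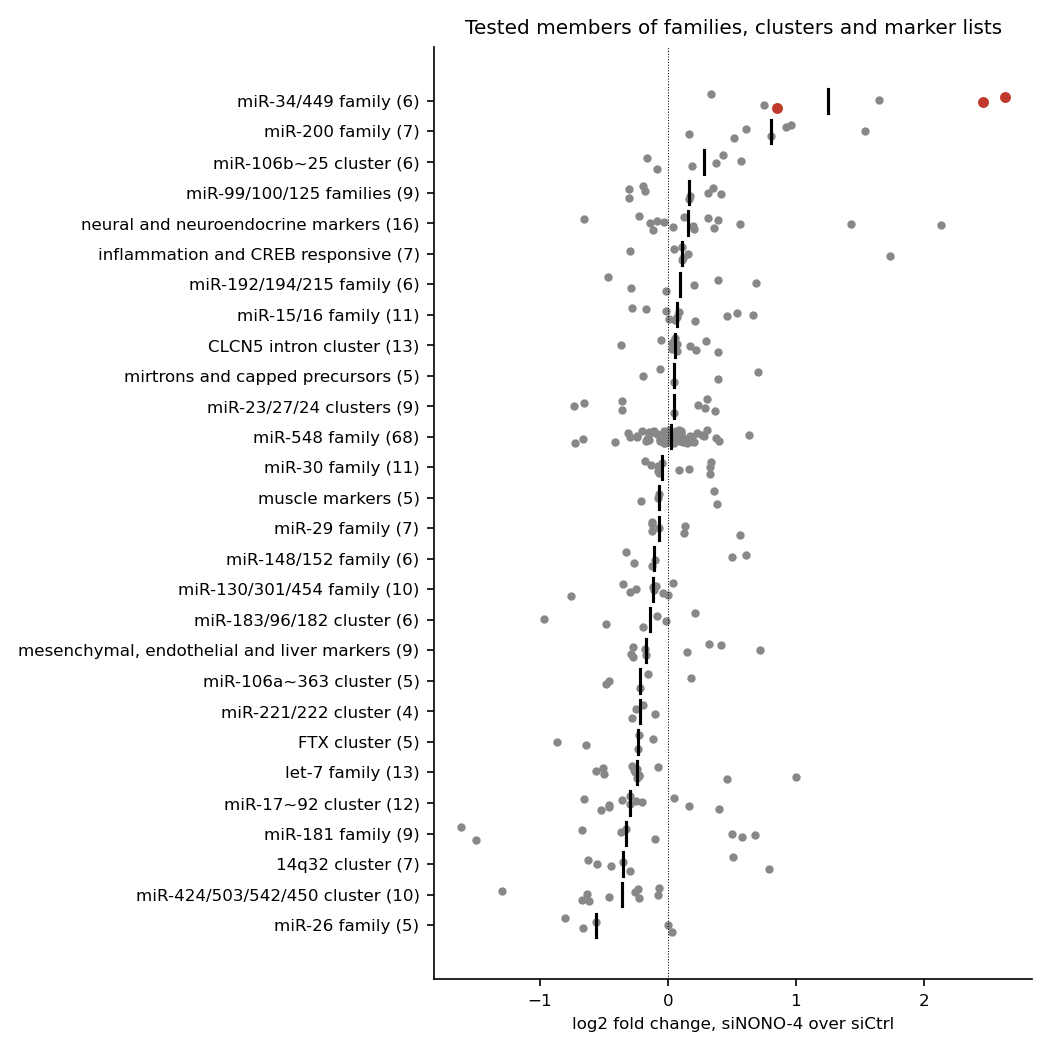
Log2 fold change, siNONO-4 over siCtrl, of each tested member of the families, clusters and marker lists with 4 or more tested members, all detected here (number in brackets), with the list median as a bar. Red points passed the threshold and lie in the miR-34 and miR-449 family alone.

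The labelled cell type was set against marker miRNAs. Of 28 products of neural and neuroendocrine miRNAs, 16 were tested and none passed. miR-9-5p, miR-7-5p, miR-128-3p and miR-218-5p were readily detected, miR-218-5p, the lowest of these, at 415, 324 and 338 CPM with siNONO-4 and 433, 375 and 376 CPM with siCtrl. The list summed to 105177 to 123380 CPM with siNONO-4 and 108012 to 123891 CPM with siCtrl. miR-375-3p, high in classical neuroendocrine lung tumours, was nearly absent at 1.58, 4.92 and 2.47 CPM with siNONO-4 and 1.12, 0.332 and 0.551 CPM with siCtrl (log2 fold change 2.13 ± 0.73, SE, adjusted p = 0.239). miR-124-3p had 4 counts over the 6 libraries together. miR-138-5p stood at 3.42, 4.92 and 4.95 CPM with siNONO-4 and 1.87, 1.33 and 1.65 CPM with siCtrl, without overlap (log2 fold change 1.43, adjusted p = 0.111).

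Of 11 products of blood cell miRNAs only those of miR-142 could be tested. miR-142-3p stood at 151, 128 and 80.8 CPM with siNONO-4 and 60.0, 91.3 and 44.6 CPM with siCtrl, with overlap (log2 fold change 0.88, adjusted p = 0.214). The list summed to 94.4 to 172 CPM with siNONO-4 and 50.1 to 105.6 CPM with siCtrl, miR-486-5p, miR-486-3p and miR-223-5p were at 0, and miR-223-3p and miR-451a had 2 and 7 counts over the 6 libraries together. Muscle markers, 5 of 12 tested, had a median of -0.07 (0.03 without siCtrl replicate 1). Mesenchymal, endothelial and liver markers, 9 of 14 tested, had a median of -0.17 (-0.06 without it). Their list summed to 67001 to 75709 CPM with siNONO-4 and 73600 to 104826 CPM with siCtrl. Most of this was miR-199a-3p and miR-199b-3p, whose near-identical counts may come from the same reads. miR-199a-3p stood at 30508, 34275 and 29819 CPM with siNONO-4 and 49210, 32529 and 32141 CPM with siCtrl, while miR-122-5p was at 0. Of the 9 tested in this list, 4 had fold changes above 0 and 5 below. The groups did not overlap for 3, miR-126-5p, miR-126-3p and miR-145-5p, all higher with siNONO-4 (7.99% over all 626 miRNAs). miR-126-5p stood at 608, 647 and 612 CPM with siNONO-4 and 272, 547 and 580 CPM with siCtrl. miR-126-3p stood at 860, 1125 and 1090 CPM with siNONO-4 and 849, 792 and 812 CPM with siCtrl. None of the blood, muscle, mesenchymal, endothelial or liver markers passed, and their part in the results was not tested.

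Both arms were tested for 183 hairpins, and the 4 with an arm at 0 in all 6 libraries were left out. Of the other 179, both fold changes were above 0 in 49, both below 0 in 59 and of opposite sign in 71. The median of the 5p minus the 3p log2 fold change was 0.05, and 7 hairpins differed by more than 1 between arms.

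The level under siNONO-4 was also set directly against siNONO-3, the other siRNA to the same mRNA, at the same dose and time. No miRNA passed edgeR's test (0% of 626), 38 had an unadjusted p under 0.05, and DESeq2 called 7. miR-34c-5p was at 77.0 CPM with siNONO-4 and 148 CPM with siNONO-3, a log2 difference of -0.95 ± 0.27 (SE; adjusted p = 0.16). miR-34b-5p was at 30.5 CPM with siNONO-4 and 61.0 CPM with siNONO-3 (-1.002 ± 0.263, SE, adjusted p = 0.112), and miR-34a-5p at 5843 CPM with siNONO-4 and 9040 CPM with siNONO-3 (-0.63 ± 0.16, SE, adjusted p = 0.112). All 3 siNONO-4 libraries were below all 3 siNONO-3 libraries for each. How many of the 626 miRNAs were separated in this way was not counted for these groups. miR-1260b ran the other way, at 115.5 CPM with siNONO-4 and 67.5 CPM with siNONO-3 (0.77 ± 0.19, SE, adjusted p = 0.112), the level with siNONO-3 being close to the 65.9 CPM of siCtrl. miR-676-3p was at 6.69 CPM with siNONO-4 and 8.13 CPM with siNONO-3 (-0.26 ± 0.29, SE, adjusted p = 0.967). These p-values miss the threshold and do not show that the siRNAs act alike.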

How the data were processed

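The authors deposited a table for each library with raw counts, whole numbers, for mature miRNA loci and for spike-ins (2883 and 52 in each). The counting tool was featureCounts 2.0.3, as the header lines record. The submitters' processing notes list the build hg38 and, with no role or order given, DESeq2 1.38.1, Subread 2.0.3, UMI-tools 1.1.1, Bowtie 1.3.0 and Trimmomatic 0.39. The sources used here do not say whether reads were collapsed by molecular identifier.

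The locus with the largest total was kept for each of 2652 mature miRNAs (169 have several loci). Names came by position from RefSeq for 2364 and from hairpins for 279, and 9 had none. Host genes are those of GENCODE on the same strand. Where counts of different miRNAs differed by at most 10% in each library, at a mean count of 20 or more, they were taken as possibly counted from the same reads.

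Testing used edgeR 4.0.16 (limma 3.58.1, R 4.3.3) after filterByExpr at a minimum count of 10, which left 626 miRNAs with 99.97% of the counts. After TMM scaling, all groups were fitted in 1 model over the 24 libraries of the series, so the spread is shared with the other groups. It had 16 residual degrees of freedom and a common biological coefficient of variation of 0.250. Those libraries held 2038382 to 4279644 miRNA counts. The test was also run on simulated data.

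Named were miRNAs past an adjusted p of 0.05 at an average of 10 CPM or more (up to 12 in each direction), the 5 most abundant in siCtrl, up to 4 members past the threshold of each list, and their other arms. The other miRNAs given with values, among them markers, cluster members, the miR-483 arms and neighbours of miR-489 and miR-675, were chosen after their values were seen. The members and lists were chosen with earlier results of these data known. Alternatives were each library left out, library totals, spike-in totals, RLE size factors, DESeq2 1.42.0, a fold of at least 1.5, loci summed, the compared groups alone, no filter, a higher filter (an average of 10 CPM) and a block for the replicate number. Library totals and the compared groups alone were added after the data were seen.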

Additional observations from a re-analysis of the deposited data

How the results depend on the processing

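Against siCtrl, 5 miRNAs were higher and 1 lower with siNONO-4. The number higher was 9 with library totals and with DESeq2, and 2 with spike-in totals, with the compared groups alone and with a fold of at least 1.5. The number lower was 2 with DESeq2 and 2 with no filter, where the pair was miR-3168 and miR-548as-3p and 3 of the 6 calls were lost (miR-676-3p, miR-1260a and miR-1260b), and 0 with spike-in totals, with the compared groups alone and with a fold of at least 1.5. Leaving out 1 library gave 2 to 7 higher and 0 to 2 lower. The number higher was 3 without siNONO-4 replicate 1, siCtrl replicate 2 or siCtrl replicate 3, and 2 without siNONO-4 replicate 3. Without siCtrl replicate 1, 7 were higher and 2 lower, 4 of the 6 remained (miR-34b-5p, miR-34c-5p, miR-1260a and miR-1260b) and 5 were gained (miR-92b-5p, miR-425-5p, miR-653-5p, let-7a-3p and miR-6844). The causes were not tested.

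Same-numbered replicates deviated with correlations of -0.39, -0.32 and -0.08, and differently numbered ones with correlations from -0.44 to 0.49. With siCtrl replicate 1 apart and few libraries a group, these cannot show whether same-numbered replicates shared a batch. The labels do not say what the replicate number stands for. With the replicate number as a block 8 were higher and 1 lower, the 6 remaining and 3 gained, and 1 differed from siNONO-3. Against siNONO-3, where 0 passed, 3 passed with a mean of at least 10 CPM, 7 with DESeq2, and 0 to 2 when 1 library was left out.

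Some fold changes that were not called turned sign. The log2 fold change of miR-9-5p was 0.094 with library totals and 0.042 with loci summed, and that of miR-9-3p was 0.045 with library totals. Leaving out 1 library gave -0.13 to 0.065 for miR-9-5p, -0.22 to 0.0065 for miR-9-3p, -0.72 to 0.028 for miR-19a-3p, -0.72 to 0.032 for miR-19b-3p, -0.93 to 0.15 for miR-19a-5p, -0.48 to 0.12 for miR-19b-2-5p and -0.36 to 0.27 for miR-10b-5p. Library totals moved the median of all tested miRNAs by 0.11 on the log2 scale and spike-in totals by -0.09. Values of miRNAs with near-identical counts cannot be separated, and most 95% intervals below 10 CPM do not exclude a 2-fold difference.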
